A study of Mus musculus with 6 samples.

Results

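The 3 TET dioxygenases and 7 genes linked to the removal of DNA methylation were followed through the differentiation of mouse embryonic stem cells into neurons. The 10 genes are Tet1, Tet2, Tet3, Tdg, Smug1, Cxxc4, Cxxc5, Apobec1, Gadd45a and Gadd45b. They were taken by symbol, each symbol matched 1 gene ID in every table, and they stand among 46517 gene IDs in all. All 10 passed the filter on low values and were among the 20232 genes tested. RNA was sequenced from E14TG2a, a stem cell line from the mouse blastocyst with the genotype label WT, used as 1 line throughout, with 2 libraries per stage. The mESC libraries are untreated stem cells grown without feeder cells on gelatin, in medium with serum and the cytokine LIF. The NPC libraries are neuronal progenitors made from that line by a published differentiation protocol, and the NC libraries are taken as the remaining stage of the design text, glutamatergic pyramidal neurons, since the labels do not spell NC out. The days of differentiation are not given in the labels, which describe the 2 libraries of a stage as biological replicates.

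TET enzymes oxidise methylated cytosine in DNA to hydroxymethylcytosine and then to further oxidised bases. The glycosylase TDG cuts out the most oxidised forms, and base excision repair puts an unmodified cytosine back. SMUG1 removes uracil and hydroxymethyluracil, APOBEC1 is a cytidine deaminase, the GADD45 proteins are stress-induced factors linked to repair-based demethylation, and CXXC4 and CXXC5 carry a zinc finger that binds CpG. Stem cells are known for high Tet1 and Tet2, and neurons for a high content of hydroxymethylcytosine.

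Promoter sequences are shown for the 3 TET genes, which moved differently, for Cxxc4, which had the largest rise, and for Apobec1, which fell with Tet1. Each line holds the 250 bases before the RefSeq transcription start on the GRCm38.p6 build, 5′ to 3′ on the strand of the gene, and capitals mark every CG, the dinucleotide that carries methylation and that a CXXC finger binds.
Tet1: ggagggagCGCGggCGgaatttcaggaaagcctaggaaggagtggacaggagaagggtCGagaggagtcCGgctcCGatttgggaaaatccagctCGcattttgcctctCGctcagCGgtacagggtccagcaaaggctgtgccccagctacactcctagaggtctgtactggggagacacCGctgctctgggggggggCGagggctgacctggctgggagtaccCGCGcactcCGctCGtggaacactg
Tet2: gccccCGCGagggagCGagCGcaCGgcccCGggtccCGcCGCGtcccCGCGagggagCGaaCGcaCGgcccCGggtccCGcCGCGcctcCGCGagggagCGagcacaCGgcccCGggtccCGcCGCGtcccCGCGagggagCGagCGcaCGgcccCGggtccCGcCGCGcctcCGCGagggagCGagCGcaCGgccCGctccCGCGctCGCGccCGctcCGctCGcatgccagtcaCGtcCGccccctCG
Tet3: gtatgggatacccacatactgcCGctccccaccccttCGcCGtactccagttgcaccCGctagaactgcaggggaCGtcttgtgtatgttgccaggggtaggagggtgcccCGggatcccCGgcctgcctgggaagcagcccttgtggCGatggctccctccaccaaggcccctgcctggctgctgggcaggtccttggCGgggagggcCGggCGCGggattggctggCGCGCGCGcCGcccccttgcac
Cxxc4: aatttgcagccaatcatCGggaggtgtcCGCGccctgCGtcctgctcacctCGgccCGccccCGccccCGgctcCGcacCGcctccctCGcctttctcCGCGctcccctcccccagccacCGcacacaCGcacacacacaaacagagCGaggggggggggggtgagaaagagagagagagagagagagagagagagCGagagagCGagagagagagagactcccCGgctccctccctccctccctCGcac
Apobec1: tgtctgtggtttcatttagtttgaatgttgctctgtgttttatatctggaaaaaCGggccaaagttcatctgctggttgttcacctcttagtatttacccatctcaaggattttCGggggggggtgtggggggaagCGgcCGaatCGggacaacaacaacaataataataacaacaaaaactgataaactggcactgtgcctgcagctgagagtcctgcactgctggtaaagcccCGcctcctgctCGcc
The windows are chr10:62887325-62887574 on the minus strand for Tet1, chr3:133544391-133544640 on the minus strand for Tet2, chr6:83441679-83441928 on the minus strand for Tet3, chr3:134236245-134236494 on the plus strand for Cxxc4 and chr6:122602445-122602694 on the minus strand for Apobec1. The Tet2 window held 51 CG, a number reached by 0.0670% of 32851 RefSeq promoter windows of the same length. The other windows held 15 CG in Tet1, 17 in Tet3, 20 in Cxxc4 and 7 in Apobec1, numbers reached by 27.3%, 23.5%, 17.9% and 46.3% of the windows. Of the 10 genes, 9 matched the RefSeq table. Among the windows not printed, that of Gadd45a held the octamer ATTTGCAT 2 times, counted on both strands, and 1.60% of all windows held it at least 1 time. The RefSeq start of Tet1 lies 11794 bases inside the gene model of the deposited tables, and that of Tet3 lies 17406 bases inside. These windows are therefore not the only possible starts, and the tables do not give separate transcripts.

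Values are the deposited TPM, a transcript abundance per length with 1 fixed total for every library, on the mm10 genome. Depth was 1.57 to 2.27 Gb of aligned bases per library, as the ratio of coverage to FPKM gives it. The tables hold no read counts, so values carry no counting interval. Over the tested genes, the SD of the log2 difference of replicates 1 and 2 was 0.4996 for mESC, 0.406 for NPC and 0.600 for NC. The summed TPM of 6 stem cell markers was 4311 and 4428 in mESC and 18.5 to 24.3 in the other libraries. The summed TPM of 7 neuron markers was 3623 and 3305 in NC, against 623 and 939 in NPC and 258 and 322 in mESC. Stmn2 made up 162 and 193 TPM of the mESC sums and was at 67.5 and 77.8 TPM in NPC. It alone among the 7 had a lower mean in NPC than in mESC. Of 7 markers of glutamatergic pyramidal neurons, 5 and 4 reached 1 TPM in NC replicates 1 and 2, with Slc17a6, a vesicular glutamate transporter, at 28.9 and 21.6 TPM, Emx1 listed at 0 in both and Neurod6 at 14.7 and 0 TPM. In the NC libraries 6 fibroblast markers summed to 699.7 and 722 TPM, against 6.01 to 50.9 in the other libraries, and none of them was at 0 in NC. The 5 endoderm markers summed to 179.9 and 123 TPM in NPC, against 88.7 and 21.3 in mESC and 26.1 and 51.8 in NC. Of them Sox17 and Foxa2 were higher in NPC than in mESC (adjusted p = 0.0183 and 0.0184 by limma). Gata4, Gata6 and Afp did not pass there (adjusted p = 0.157, 0.752 and 0.254 by limma), with Afp at 3.80 and 0.412 TPM in NPC. The neural progenitor markers were at 1 TPM or more for 6 of 6 in NPC and NC. They summed to 1186 and 386 TPM in NC replicates 1 and 2, against 845 and 743 TPM in NPC. Fabp7 made up 792 and 164 TPM of the NC sums, and alone among the 6 had a higher mean in NC than in NPC. The part of these other cells in the results was not tested, and fewer cells of a type and less RNA per cell cannot be told apart in bulk samples. Of all genes called, 65.0% were higher in NPC than in mESC, 60.1% higher in NC than in NPC and 63.2% higher in NC than in mESC. After median-of-ratios scaling these shares were 52.7%, 54.6% and 52.3%, and after quantile normalization 51.2%, 47.7% and 47.2%. The median over all tested genes was 0.18, 0.11 and 0.31 on the log2 scale in these 3 comparisons, and -0.01, 0.04 and 0.05 after median-of-ratios scaling.

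Stem cells and neuronal progenitors were compared to ask how the demethylation genes change when pluripotency is left. From mESC to NPC, 9 of the 10 genes changed at an adjusted p under 0.05 (limma on log2(TPM + 1), Benjamini-Hochberg over all genes tested), where 40.0% of all tested genes did. Tet3, Tdg, Smug1, Cxxc4 and Cxxc5 rose, against 26.0% of all genes, and Tet1, Tet2, Apobec1 and Gadd45b fell, against 14.0%. From NPC to NC the comparison asks what follows at the NC stage. Here 4 genes passed, Cxxc4, Cxxc5, Apobec1 and Gadd45b, all higher in NC, against 15.2% of all genes higher and 25.3% called in either direction. None was called lower in NC than in NPC by limma (1 gene, Smug1, at an unadjusted p under 0.05). Between mESC and NC 7 genes passed, 4 higher and 3 lower in NC, against 59.9% of all genes called, 37.8% higher and 22.1% lower, so the count over the whole course lies near that of genes in general. The 3 comparisons share libraries.

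**Figure D1:**
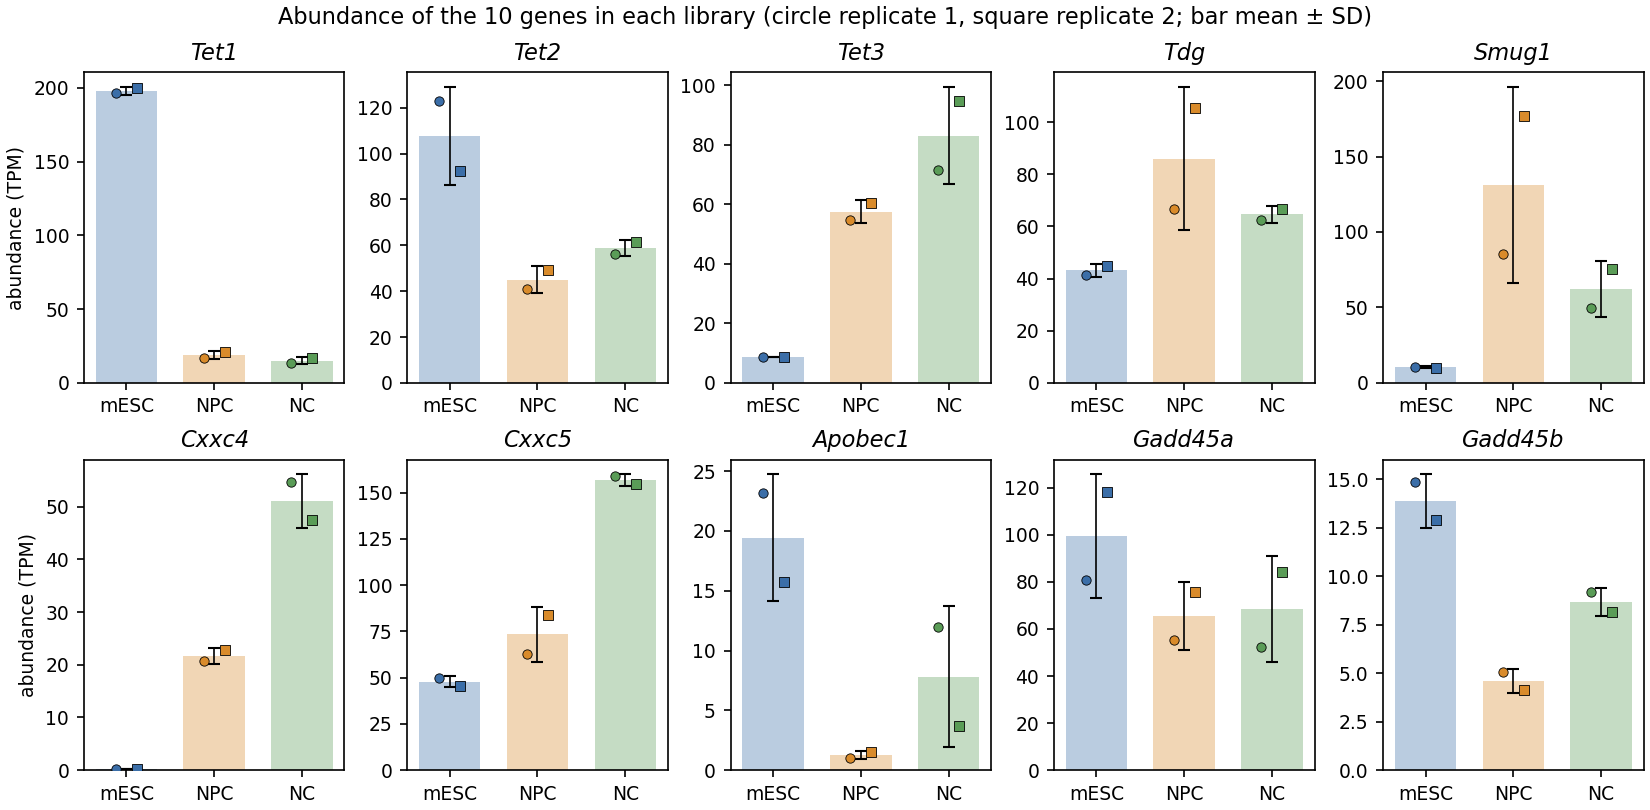
TPM (linear axis from 0, a scale of its own in each panel) of the 10 genes at the stages mESC, NPC and NC. Circles are replicate 1, squares replicate 2, and bars with error bars the mean ± SD of 2 libraries. Tet1 stands at 196 and 199.8 TPM in mESC and between 13.6 and 20.8 TPM in the later libraries, while Cxxc4 goes from under 0.3 TPM to 47.5 and 54.7 TPM.

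Tet1 (ENSMUSG00000047146.14, chr10:62804570-62899118, minus strand) is the TET enzyme with a CXXC finger that is abundant in stem cells. Replicates 1 and 2 of mESC had 196 and 199.8 TPM, with values in the same order at 17.1 and 20.8 TPM in NPC, and at 13.6 and 16.6 TPM in NC. Both stem cell libraries lie far above all later ones, and the NC values lie just below the NPC values without overlap. The mean fell 10.4-fold from mESC to NPC (log2 fold change -3.32 with SE 0.173, adjusted p = 5.70e-05 by limma) and was 13.1-fold lower in NC than in mESC (log2 fold change -3.63, limma adjusted p = 2.63e-05). The difference of NC from NPC did not pass (log2 fold change -0.31 with SE 0.173, adjusted p = 0.239 by limma).

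Tet2 (ENSMUSG00000040943.11, chr3:133463679-133545139, minus strand) lacks a CXXC finger of its own. Its values were 123 and 92.5 TPM in mESC, 40.9 and 49.1 TPM in NPC, and 56.3 and 61.3 TPM in NC. The stem cell libraries are highest, the NPC libraries lowest, and no stages overlap. Tet2 fell 2.39-fold from mESC to NPC (log2 fold change -1.23 with SE 0.185, adjusted p = 0.00282 by limma) and was 1.83-fold lower in NC than in mESC (log2 fold change -0.85 with SE 0.185, adjusted p = 0.00762 by limma). The higher NC values did not pass against NPC (log2 fold change 0.38 with SE 0.185, adjusted p = 0.178 by limma).

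Tet3 (ENSMUSG00000034832.14, chr6:83362373-83459084, minus strand), the TET enzyme also known from the oocyte and the zygote, went the other way. It was at 8.72 and 8.65 TPM in mESC, 54.8 and 60.4 TPM in NPC, and 71.6 and 94.6 TPM in NC. The 3 stages do not overlap and are ordered mESC, NPC, NC. The mean rose 6.63-fold from mESC to NPC (log2 fold change 2.59 with SE 0.182, adjusted p = 0.000154 by limma) and was 9.57-fold higher in NC than in mESC (log2 fold change 3.10 with SE 0.182, adjusted p = 4.28e-05 by limma). NC against NPC did not pass (log2 fold change 0.51 with SE 0.182, adjusted p = 0.0853 by limma), and did so without NC replicate 1 (adjusted p = 0.0492). An opposite-strand gene, B230319C09Rik, overlaps Tet3 and reached at most 5.79 TPM. The sources used here do not say whether reads were counted by strand.

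The makeup of TET transcripts differed between stages. The 3 genes summed to 314 TPM ± 18.9 (SD, n = 2) in mESC, 122 ± 12.4 in NPC and 157 ± 21.997 in NC. Their coverage summed to 111 ± 1.63, 29.3 ± 3.26 and 33.2 ± 4.73 reads per base per Gb of aligned bases, so the sum in the later stages stood lower against mESC by coverage than by TPM. Tet1 held 59.9% and 66.4% of that sum in the mESC libraries, 15.1% and 15.99% in NPC, and 9.63% and 9.65% in NC. Tet3 held 2.66% and 2.87% of it in the mESC libraries, 48.6% and 46.3% in those of NPC, and 50.6% and 54.8% in those of NC. The share of Tet2 lay between 30.7% and 39.8% in all 6 libraries, with overlapping stages. The order of stages in the shares of Tet1 and Tet3 was the same from the deposited coverage, the mean read depth over a gene's exons, but the level of Tet2 was not. From coverage Tet2 held 15.2% ± 2.72 in mESC, 20.2% ± 0.442 in NPC and 22.1% ± 1.56 in NC, and Tet1 held 82.4% ± 2.69, 24.6% ± 1.61 and 14.3% ± 0.376. In NPC Tet1 is thus below Tet2 by TPM and above it by coverage. For Tet2 the FPKM was 3.09 to 3.44 times the coverage per Gb of aligned bases, against 1.05 to 1.28 times for Tet1 and 1.57 to 1.61 times for Tet3. The shares are a description and were not tested.

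**Figure D2:**
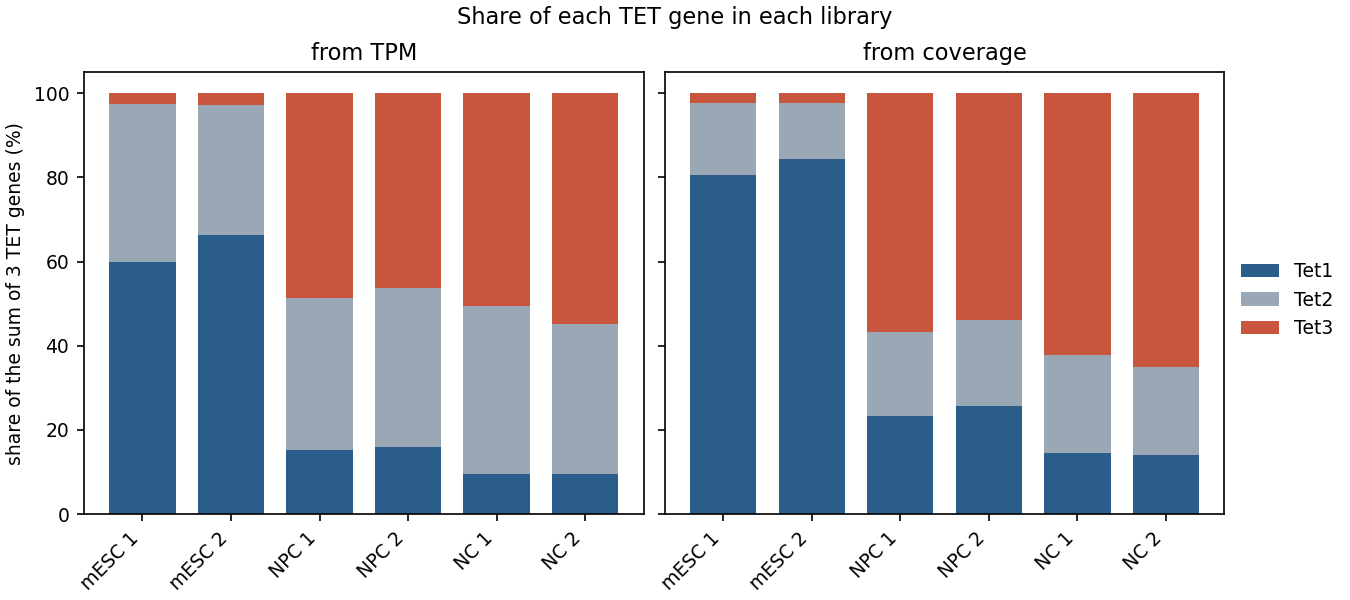
Share (%) of Tet1, Tet2 and Tet3 in the sum of the 3 genes, 1 bar per library, from TPM (left) and from coverage (right). Tet1 holds the largest share in both mESC libraries and Tet3 in all 4 later libraries under either measure, while the share of Tet2 is smaller from coverage.

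Of the glycosylases, Tdg (ENSMUSG00000034674.17, chr10:82629828-82650799, plus strand) is the enzyme that removes formylcytosine and carboxylcytosine. It stood at 41.5 and 44.8 TPM in mESC, 66.5 and 105 TPM in NPC, and 62.4 and 66.8 TPM in NC. Both mESC libraries are the lowest, while NPC and NC overlap. Tdg rose 1.99-fold from mESC to NPC (log2 fold change 0.94 with SE 0.224, adjusted p = 0.0166 by limma), and was not called without NPC replicate 2 (0.61, adjusted p = 0.0980) nor without either mESC library (adjusted p = 0.105 without replicate 1 and 0.0902 without replicate 2). The gap between the 2 NPC libraries was smaller in the coverage, at 6.19 and 6.66 reads per base per Gb in NPC and 3.83 and 5.04 in mESC. On that scale the log2 fold change was 0.46 and did not pass (limma adjusted p = 0.0760). NC differed from mESC by 0.57 on the log2 scale without passing (limma adjusted p = 0.0647). That difference was called under 3 of 16 other settings, with only the 2 groups compared and without either NPC library. Tdg-ps, a pseudogene copy of Tdg on chromosome 15, was listed at 10.8 to 19.7 TPM, and reads could be split between the copies, so the Tdg level is uncertain.

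Smug1 (ENSMUSG00000036061.9, chr15:103153307-103158002, minus strand), the uracil and hydroxymethyluracil glycosylase, was at 10.8 and 10.1 TPM in mESC, 85.4 and 177 TPM in NPC, and 49.4 and 75.4 TPM in NC. The stages do not overlap, and NPC is highest with its 2 libraries far apart. Smug1 rose 12.6-fold from mESC to NPC (log2 fold change 3.44 with SE 0.359, adjusted p = 0.000675 by limma) and was 5.99-fold higher in NC than in mESC (log2 fold change 2.44 with SE 0.359, adjusted p = 0.00152 by limma). The lower NC value did not pass against NPC (log2 fold change -0.999 with SE 0.359, adjusted p = 0.0876 by limma). The gene model in the tables ends at base 103158002, whereas GENCODE vM21 extends Smug1 to base 103167092, so whatever lies beyond that model is outside its value.

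Cxxc4 (ENSMUSG00000044365.14, chr3:134236484-134262161, plus strand) encodes IDAX, a CXXC protein linked to the control of TET2 protein, and its gene lies 691 kb from Tet2. It was nearly silent in mESC, at 0.257 and 0.186 TPM, and stood at 20.7 and 22.8 TPM in NPC and 54.7 and 47.5 TPM in NC. The 3 stages do not overlap and rise in order. The log2 fold change of TPM + 1, which understates the change of a gene this low, was 4.22 from mESC to NPC (SE 0.207, adjusted p = 4.62e-05 by limma) and 1.20 from NPC to NC (SE 0.207, adjusted p = 0.0102 by limma). The second of these was not called without NPC replicate 1 (adjusted p = 0.108) or NPC replicate 2 (adjusted p = 0.0778). With a pseudocount of 0.1 the log2 fold change from mESC to NPC was 6.09, and with 5 it was 2.35.

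Cxxc5 (ENSMUSG00000046668.8, chr18:35829818-35861687, plus strand), the paralogue of Cxxc4, was at 49.8 and 45.7 TPM in mESC, 62.9 and 83.8 TPM in NPC, and 159 and 154 TPM in NC. The stages are ordered without overlap, and NC stands clear of the rest. Cxxc5 rose 2.14-fold from NPC to NC (log2 fold change 1.10 with SE 0.169, adjusted p = 0.00746 by limma) and 3.28-fold over the whole course (log2 fold change 1.69, limma adjusted p = 0.000310). Without NPC replicate 1 the step from NPC to NC was not called (0.90, adjusted p = 0.0760). Its smaller rise from mESC to NPC (log2 fold change 0.60 with SE 0.169, adjusted p = 0.0314 by limma) was lost under 12 of 16 other settings, among them median-of-ratios scaling (0.37, adjusted p = 0.116). It was also lost without any 1 library of the 6 other than NPC replicate 1 (adjusted p from 0.0546 to 0.221).

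Apobec1 (ENSMUSG00000040613.13, chr6:122577792-122602444, minus strand), a cytidine deaminase best known for editing apolipoprotein B mRNA, was at 23.2 and 15.7 TPM in mESC, 1.04 and 1.51 TPM in NPC, and 11.97 and 3.66 TPM in NC. The NPC libraries are the lowest and do not overlap with either other stage, and the NC libraries are far apart. Apobec1 fell 15.2-fold from mESC to NPC (log2 fold change -3.15 with SE 0.493, adjusted p = 0.00329 by limma), though without mESC replicate 1 the adjusted p was 0.0507. It was higher in NC than in NPC (log2 fold change 1.78 with SE 0.493, adjusted p = 0.0418 by limma), a call lost under 11 of 16 other settings and without any 1 of the libraries except NC replicate 2. Leaving out NC replicate 1 brought that difference to 1.04 (adjusted p = 0.103). Against mESC, NC was lower by a log2 fold change of -1.37 (limma adjusted p = 0.0487), a call lost under 8 of 16 settings, with -0.63 (adjusted p = 0.181) without NC replicate 2. In NC replicates 1 and 2, 5 astrocyte markers summed to 121 and 62.0 TPM, against 124 and 122 in NPC and 141 and 96.5 in mESC, with Aldh1l1 at 59.3 and 1.89 TPM and Gja1 at 50.8 and 59.2 TPM in NC, and 4 microglia and blood markers to 1.21 and 3.23 TPM, with Aif1 and Ptprc at 0 in the first and Cx3cr1 at 0 in the second. Their part in the Apobec1 values was not tested.

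Gadd45a (ENSMUSG00000036390.7, chr6:67035096-67037457, minus strand) and Gadd45b encode small nuclear proteins induced by DNA damage and stress. Gadd45a stood at 80.9 and 118 TPM in mESC, 55.2 and 75.8 TPM in NPC, and 52.4 and 84.2 TPM in NC. NC overlaps with both other stages. Gadd45a was the only one of the 10 genes that passed in none of the 3 comparisons (log2 fold change from mESC to NPC -0.59 with SE 0.296, adjusted p = 0.162 by limma). With the replicate number as a block it passed against mESC in NPC (adjusted p = 0.0324) and in NC (adjusted p = 0.0274). Gadd45a also passed in NC against mESC with median-of-ratios scaling and with FPKM, so under 3 of 16 other settings. The opposite-strand gene E230016M11Rik overlaps Gadd45a and stood at 1.43 to 15.3 TPM.

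Gadd45b (ENSMUSG00000015312.8, chr10:80930091-80932204, plus strand) was at 14.9 and 12.9 TPM in mESC, 5.06 and 4.16 TPM in NPC, and 9.20 and 8.15 TPM in NC. The 3 stages do not overlap, with NPC lowest. Gadd45b fell 3.01-fold from mESC to NPC (log2 fold change -1.41 with SE 0.225, adjusted p = 0.00361 by limma). It was higher in NC than in NPC (log2 fold change 0.79 with SE 0.225, adjusted p = 0.0459 by limma), a call lost under 14 of 16 other settings, among them leaving out any 1 library. NC against mESC just missed the threshold (log2 fold change -0.62, limma adjusted p = 0.0508) and passed under 6 of the 16 settings, among them median-of-ratios scaling (-0.91, adjusted p = 0.0126).

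**Figure D3:**
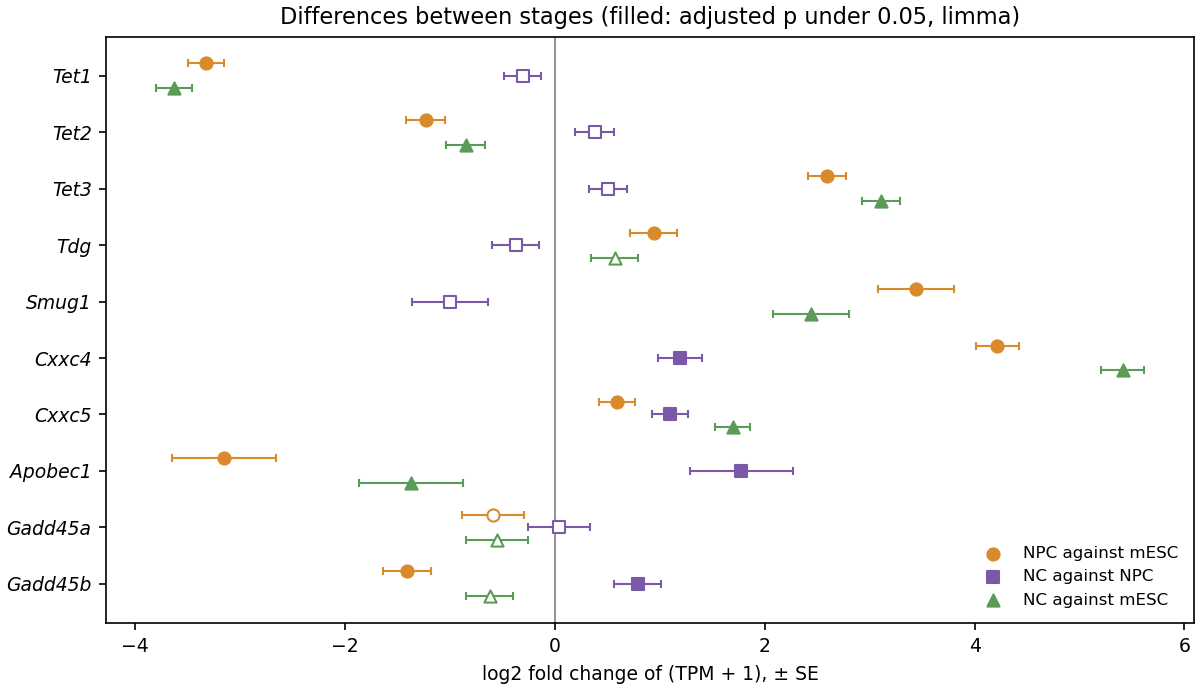
Log2 fold change of TPM + 1 (x axis, ± SE of the limma fit) for each of the 10 genes and the comparisons NPC against mESC (circles), NC against NPC (squares) and NC against mESC (triangles). Filled marks have an adjusted p under 0.05. Of the circles 9 are filled, and 4 squares are filled, those of Cxxc4, Cxxc5, Apobec1 and Gadd45b.

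The calls from NPC to NC depended on single libraries. Without NPC replicate 1 none of the 10 genes passed by limma (5 at an unadjusted p under 0.05) and 309 of all genes did, against 5123 with all libraries. Without NPC replicate 2 only Cxxc5 passed, and 1276 of all genes. The direction from NPC to NC stayed the same for 9 genes under each of 16 settings, and turned for Gadd45a under 6. All genes but Tdg and Gadd45a have NPC and NC libraries that do not overlap. For those genes leaving out a library or changing the pseudocount or filter cannot turn the direction. The share of all tested genes without overlap was not computed, so the lack of overlap is not read as a trait of these genes.

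**Figure D4:**
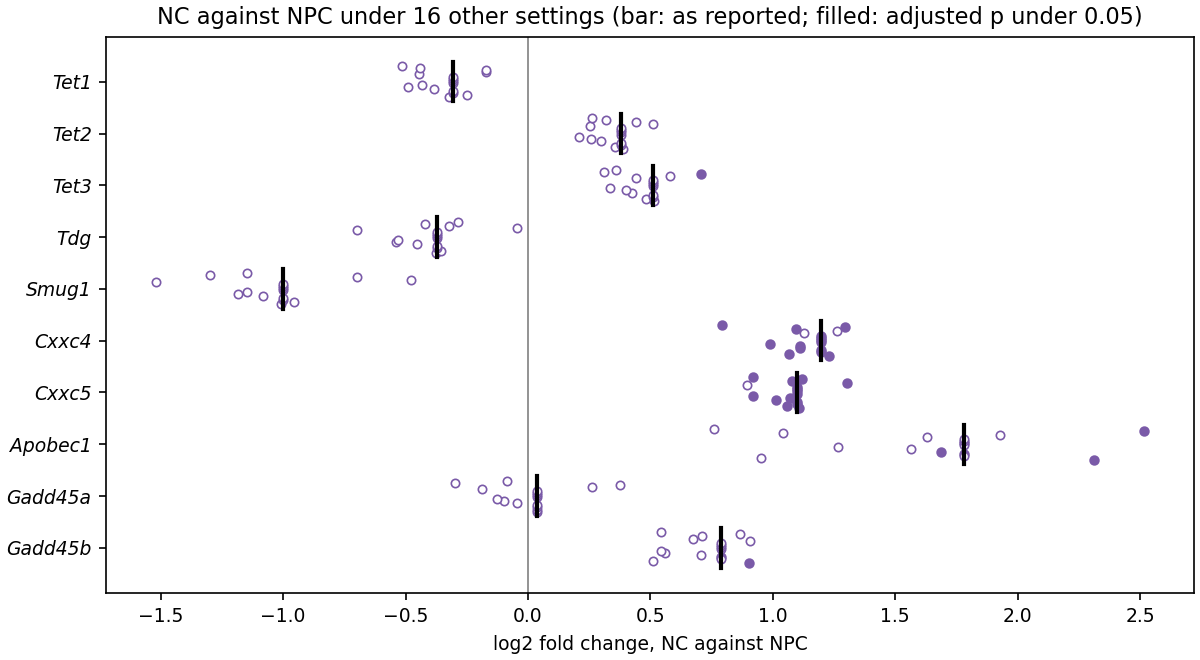
Log2 fold change of NC against NPC (x axis) for each gene, with a black bar for the value as reported and 1 point for each of 16 other settings of scaling, filter, unit, fit or library left out. Filled points have an adjusted p under 0.05. Points of Gadd45a lie on both sides of 0, those of Apobec1 spread from 0.76 to 2.52, and most points of Cxxc4 and Cxxc5 are filled.

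The order of levels, read per length from TPM, was rebuilt between stages. In mESC it ran Tet1, Tet2, Gadd45a, Cxxc5, Tdg, Apobec1, Gadd45b, Smug1, Tet3, Cxxc4, and of the neighbours in this order only Tet2 and Gadd45a overlapped between libraries. In NPC it ran Smug1, Tdg, Cxxc5, Gadd45a, Tet3, Tet2, Cxxc4, Tet1, Gadd45b, Apobec1, where each of the first 4 overlapped with the next and Cxxc4 overlapped with Tet1. In NC it ran Cxxc5, Tet3, Gadd45a, Tdg, Smug1, Tet2, Cxxc4, Tet1, Gadd45b, Apobec1, where Tet3 to Tet2 formed a chain of overlapping neighbours and Gadd45b overlapped with Apobec1. Tet1 thus went from the highest of the 10 in mESC to the eighth in NPC and NC. Levels of genes with several transcripts depend on the measure, since FPKM equalled the coverage per Gb within 0.001 for only 3 of the 10 genes, Smug1, Cxxc5 and Gadd45b.

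Genes with the most similar course were sought among 15397 tested genes by the distance between centred log2(TPM + 1) values over the 6 libraries. The added 1 compresses the changes of low genes, so a gene near on this scale can have another fold change of TPM. Nearest to Tet1 were Slc30a2 (distance 0.264), Mageb16-ps2 (0.273), Pramef12 (0.380), RP23-367H8.3 (0.451) and Sohlh2 (0.455). These are much less abundant than Tet1, with means of 10.5 to 24.8 TPM in mESC. Nearest to Tet2 were Orai3 (0.157), Psors1c2 (0.168), Pnpla6 (0.255), Cdh15 (0.259) and Cngb1 (0.266). Nearest to Tet3 were Nos1ap (0.167), Epb4.1 (0.219), Grip1 (0.262), Scmh1 (0.270) and Cuedc1 (0.270). Nearest to Smug1 were Adamts20 at 0.374 and Rgl3, Unc5c, Cachd1 and Hhipl1 at 0.691 to 0.746. Nearest to Cxxc4 were Ptprd (0.288), Lppr3 (0.310), Rgs8 (0.447), Sema6d (0.475) and Neurod4 (0.492). Among the 10 genes themselves the closest pair was Tet2 and Gadd45b, at 0.591, both highest in mESC and lowest in NPC.

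The wider demethylation pathway was read from 9 lists, of which 67 genes are not among the 10, and 65 of these were tested. From mESC to NPC 14 rose and 20 fell, where 26.0% of all tested genes rose and 14.0% fell. From NPC to NC 6 rose and 12 fell, against 15.2% and 10.1% of all tested genes. Between mESC and NC 18 were higher and 27 lower in NC, against 37.8% and 22.1%, and these shares are the ones to read the counts of each list against. Of 10 DNA glycosylases, Tdg and Smug1 included, 2 were higher and 6 lower in NC than in mESC, with a median log2 fold change of -1.05 against 0.31 over all tested genes. Ung, the main uracil glycosylase, fell at each step and averaged 97.4 TPM ± 6.80 for mESC, 29.8 ± 0.181 for NPC and 5.91 ± 2.69 for NC (log2 fold change from mESC to NC -3.89 with SE 0.273, adjusted p = 8.03e-05 by limma). Without mESC replicate 2 its first step was not called (adjusted p = 0.0542), nor was the second without NPC replicate 1 (adjusted p = 0.0555). Mbd4, the glycosylase with a methyl-CpG binding domain, fell from 28.97 TPM ± 2.80 in mESC to 8.26 ± 0.977 in NC, and Neil2 and Mutyh, glycosylases of oxidised or mispaired bases, were lower in NC by log2 fold changes of -1.98 and -1.45. Those 3 differences of NC from mESC were lost under none of 16 settings. Neil1, which can act on bases made by TET and TDG, was the other gene of the list besides Smug1 that was higher in NC, with 13.3 TPM ± 0.970 in NPC and 26.3 ± 0.126 in NC. From mESC to NPC the glycosylases counted 3 higher and 5 lower, the latter 1 without either NPC library and 2 without either mESC library, with Neil3 just past the threshold (log2 fold change 0.97, limma adjusted p = 0.0486) and lost under 13 of 16 settings. The second step of Neil1 was lost without any 1 of the NPC and NC libraries (adjusted p from 0.0592 to 0.143).

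Downstream repair genes were lower in NC than in mESC for 6 of 11 and higher for 2, with a median log2 fold change of -0.62 against 0.31 over all tested genes, of which 22.1% were lower and 37.8% higher. Lig1, the ligase of replication, fell from 207 TPM ± 6.35 to 57.1 ± 1.37 (log2 fold change -1.84, limma adjusted p = 8.65e-05), and the nick sensor Parp1 from 473 TPM ± 14.0 to 162 ± 38.9 (log2 fold change -1.56). Polb, the polymerase of base excision repair, rose from 41.0 TPM ± 0.718 to 130.1 ± 7.49 (log2 fold change 1.64, limma adjusted p = 0.000122). Fen1, a flap nuclease, was lower in NC (log2 fold change -1.55). From mESC to NPC 2 of the 11 rose and 3 fell, among them Aptx (0.95), Parp1 (-0.75), Parp2 (-0.58) and Lig1 (-0.49), and from NPC to NC 1 rose and 3 fell, Xrcc1 among them (-0.63). Aptx was lost without NPC replicate 2 (adjusted p = 0.0638), Parp2 without either NPC library (up to 0.125), and Parp1 and Lig1 from mESC to NPC without any 1 of the mESC and NPC libraries (up to 0.122 and 0.206). Xrcc1 was lost without either NPC library or NC replicate 1 (up to 0.158). The summed TPM of 6 markers of dividing cells was 1881 and 2102 for the mESC libraries, 1478 and 1357 for the NPC libraries, and 513 and 555 for the NC libraries, and their part in these differences was not tested.

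All 3 tested cytidine deaminases were lower in NPC and in NC than in mESC, and 2 were higher in NC than in NPC, both of which were lost without any 1 library other than NC replicate 2. Their median log2 fold change between mESC and NC was -1.75, where 22.1% of all tested genes were lower. Apobec3, a restriction factor of retroviruses, stood at 102 and 89.8 TPM in mESC, 7.81 and 6.29 TPM in NPC, and 18.4 and 13.4 TPM in NC, lowest in NPC as Apobec1 was. Its difference was -3.59 from mESC to NPC (SE 0.217, adjusted p = 9.36e-05 by limma) and 1.06 from NPC to NC (limma adjusted p = 0.0165, lost under 8 of 16 settings) on the log2 scale. Apobec2 was low throughout, at 3.34 TPM ± 0.224 in mESC and 0.769 ± 0.0350 in NPC, a fall lost without any 1 of the mESC and NPC libraries (adjusted p up to 0.141). Apobec4 was listed at 0 in all libraries and was not tested.

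The remaining GADD45 gene behaved unlike Gadd45a and Gadd45b. Gadd45g, which is also known from developing neurons, stood at 5.98 and 6.41 TPM in mESC, 85.5 and 112 TPM in NPC, and 158 and 203 TPM in NC. The stages do not overlap, and the log2 fold change from mESC to NPC was 3.78 (SE 0.197, adjusted p = 5.71e-05 by limma). Of the 9 genes of the GADD45 and nucleotide excision repair list 5 were higher in NC than in mESC and none lower by limma (2 at an unadjusted p under 0.05), where 37.8% of all tested genes were higher and 22.1% lower. The counts were 3 higher and 3 lower with median-of-ratios scaling and with FPKM, 3 and 2 with quantile normalization, and 4 and 2 with coverage per Gb, and the median log2 fold change was 0.46 against 0.31 over all tested genes. Among them were the damage sensor Xpa (log2 fold change 1.16), the nuclease genes Ercc5 (1.06) and Ercc4 (0.72), the last of which was lost under 3 settings of scaling or unit (adjusted p from 0.0560 to 0.246). From NPC to NC 2 of the 9 rose and 1 fell, Ing1 (-0.61), a chromatin factor said to bring GADD45A to DNA, lost under 8 of 16 settings.

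Of 12 genes with a CXXC finger, 8 were higher and 2 lower in NC than in mESC, the 2 being Tet1 and Dnmt1, where 37.8% of all tested genes were higher and 22.1% lower. With median-of-ratios scaling 5 were higher, and with quantile normalization, FPKM or coverage per Gb 6 were. The median log2 fold change was 0.62 against 0.31 over all tested genes. Dnmt1, the maintenance methyltransferase, stood at 209.8 TPM ± 6.54 in mESC, 208 ± 6.49 in NPC and 118 ± 6.95 in NC (log2 fold change from NPC to NC -0.81, limma adjusted p = 0.00715). That step was lost without either NPC library (adjusted p from 0.0657 to 0.0895), and the difference of NC from mESC under no setting. Mbd1, a reader of methylated DNA (log2 fold change from mESC to NC 1.69), the histone methyltransferase gene Kmt2a (1.48) and Fbxl19 (0.70, adjusted p = 0.0553 with median-of-ratios scaling) were higher. From mESC to NPC 6 of the 12 rose and 1, Tet1, fell, against 26.0% and 14.0% of all tested genes. Only 3 rose with median-of-ratios scaling and without NPC replicate 2, and 4 with quantile normalization, FPKM, coverage per Gb, no filter, the replicate block and without any other 1 of the mESC and NPC libraries. From NPC to NC 2 rose and 1 fell, calls that were all lost without NPC replicate 1.

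Partners of TET proteins were lower in NC than in mESC for 6 of 12 tested and higher for 2, where 22.1% of all tested genes were lower and 37.8% higher. The higher count was 1 under 7 settings, among them median-of-ratios scaling and leaving out mESC replicate 2 or either NC library. The median log2 fold change was -0.62 against 0.31 over all tested genes. Nanog and Prdm14, stem cell factors that bind TET1 or TET2, were at 237 TPM ± 33.97 and 21.7 ± 1.81 in mESC. In NPC Nanog was listed at 0 in both libraries and Prdm14 was at 0.0352 and 0 TPM. Rest, a repressor of neuronal genes, was lower in NPC (log2 fold change -2.25), and Sall4, which binds oxidised methylcytosine, and Lin28a were lower in NC than in mESC (-5.40 and -4.27). Lin28a differed widely between libraries, with 2.01 and 33.4 TPM in NC, and was not called without either mESC library (adjusted p from 0.0748 to 0.123, the range including no filter). Ebf1, a factor that can recruit TET2, rose from NPC to NC (10.9 TPM ± 3.65 to 64.0 ± 0.124, log2 fold change 2.48, adjusted p = 0.0518 without NPC replicate 1), where Sin3a, a corepressor, fell (-0.48, lost under 8 of 16 settings). Wt1 was higher in NPC than in mESC (log2 fold change 2.26), a call lost under 7 of 16 settings.

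Genes that supply the TET cosubstrate 2-oxoglutarate or clear its inhibitor 2-hydroxyglutarate counted 1 higher and 3 lower of 11 in NPC against mESC. There 26.0% of all tested genes were higher and 14.0% lower. In NC against mESC the list also counted 1 higher and 3 lower, where 37.8% of all tested genes were higher and 22.1% lower. With median-of-ratios scaling, FPKM or coverage per Gb 6 were lower in NC than in mESC, and the median log2 fold change was -0.15 against 0.31 over all tested genes. From NPC to NC none passed by limma (0 at an unadjusted p under 0.05). Glud1, the glutamate dehydrogenase, fell from 252 TPM ± 49.8 to 102 ± 0.148 in NPC, and Idh3a, a subunit of the NAD-dependent isocitrate dehydrogenase, from 112 TPM ± 1.54 to 46.7 ± 2.27. Idh1, the cytosolic NADP-dependent isocitrate dehydrogenase, rose by a log2 fold change of 0.83 to NPC, lost under 7 of 16 settings, and was 1.22 higher in NC than in mESC.

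Proteins reported to bind hydroxymethylcytosine went both ways, with 2 of 6 higher and 3 lower in NC than in mESC, where 37.8% of all tested genes were higher and 22.1% lower. The higher count was 1 with median-of-ratios scaling, quantile normalization, FPKM or coverage per Gb, and the median log2 fold change was -0.24 against 0.31 over all tested genes. Hmces, a factor that shields abasic sites, averaged 220.4 TPM ± 16.4 for mESC, 37.4 ± 1.28 for NPC and 29.9 ± 7.78 for NC (log2 fold change from mESC to NC -2.86, limma adjusted p = 7.27e-05). Wdr76 was lower in NC than in mESC (log2 fold change -1.64), and Uhrf2, a ubiquitin ligase, was higher in NPC (0.85, lost under 4 of 16 settings) and in NC (0.65, lost under 11 of 16 settings).

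**Figure D5:**
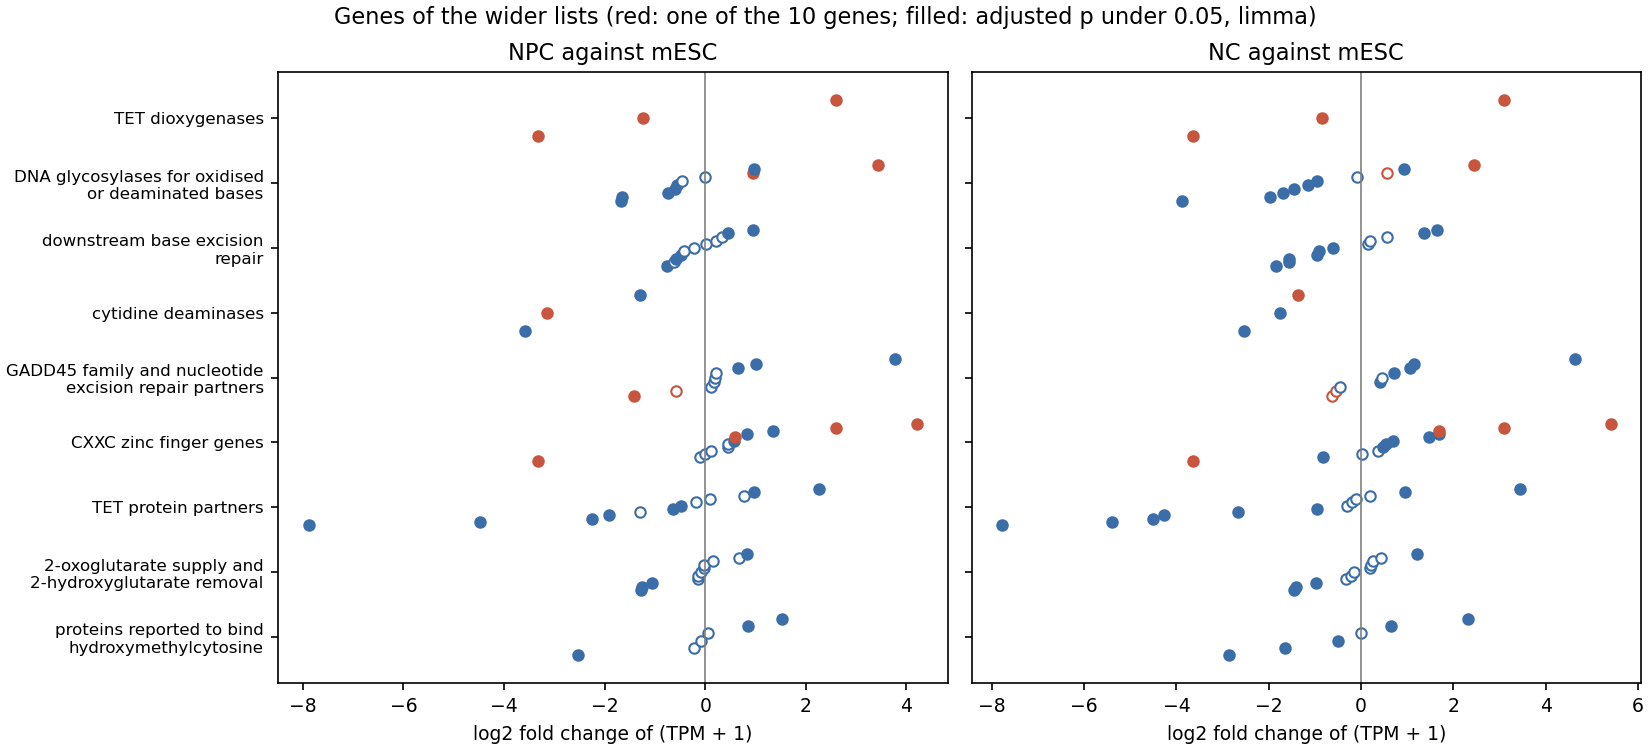
Log2 fold change of TPM + 1 (x axis) for each tested gene of the 9 lists, for NPC against mESC (left) and NC against mESC (right). Red points are the 10 genes, blue points the other genes, and filled points have an adjusted p under 0.05. The TET genes lie on both sides of 0, all deaminases lie below 0, and Smug1 is the glycosylase farthest above 0.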

How the data were processed

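RNA abundance was analysed in 6 libraries, 2 for each of mESC, NPC and NC, grouped by the sample titles. Per the submitters' processing notes, the aligner STAR 2.7.9a and the assembler StringTie 2.1.5 were used, with cutadapt 3.4, FastQC, DESeq2 and R 4.0.3 also named, with no role or order given, and the build is mm10. Per the file headers, the deposited tables are StringTie gene abundances, with coverage as mean read depth over exons, FPKM per length and library size, and TPM rescaled to a fixed sum. The annotation release and strand setting were not given in the sources used here. Positions of 6 of the 10 genes equal those of GENCODE vM21.

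Repeated gene IDs were summed. Genes at or above TPM 1 in 2 or more libraries were tested with limma 3.58.1 in R 4.3.3 on log2(TPM + 1), with a trend, all 6 libraries, no replicate block and two-sided p-values, Benjamini-Hochberg adjusted over all genes tested at 0.05. The fit leaves 3 residual degrees of freedom and was run on simulated data. That simulation drew independent normal errors with the spread of the fit itself. It therefore cannot show how the test behaves on these libraries. P-values set each difference against the spread between these libraries, pooled over the 3 stages and moderated over all genes tested. The 10 genes and the 9 lists were chosen with earlier results of these data known. All 10 genes are named, with up to 4 called genes of largest change per list and comparison, and the 5 nearest courses for Tet1, Tet2, Tet3, Smug1 and Cxxc4, leaving out symbols of the Gm and Rik kind. Further genes named (Apobec4 and overlapping or neighbouring genes) were chosen after their values were seen. Of the listed symbols, Dcaf1 was not matched. Alternatives covered pseudocount, filter, scaling, deposited unit, fit, replicate block and each library left out. Coverage per Gb in the fit was added after seeing the data. Some genes of the lists are counted but not reported here by name.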

Additional observations from a re-analysis of the deposited data

How the results depend on the processing

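Over the 30 log2 fold changes of the 10 genes and 16 other settings, 406 of 480 values kept their direction and side of the threshold, 54 lost the call, 14 gained it and 6 turned. All 6 were Gadd45a in NC against NPC, which did not pass as reported (0.04) and was -0.045 with median-of-ratios scaling, -0.10 with quantile normalization, -0.13 with FPKM, -0.087 with coverage per Gb, -0.19 without NPC replicate 1 and -0.30 without NC replicate 2, with 0.38 without NC replicate 1 as the upper end. The cause was not tested. The number of the 10 genes called in NC against NPC was 4 as reported and 2 with a pseudocount of 5, with no filter, with quantile normalization, with FPKM, with coverage per Gb and with only the 2 groups compared. Leaving out 1 library gave 0 to 3. For NPC against mESC it lay between 6 and 9 under all settings, and for NC against mESC between 6 and 9. Of all genes, 3166 were called in NC against NPC with no filter, against 5123. Leaving out 1 library gave 309 to 4156 there, 4032 to 8484 in NPC against mESC and 9499 to 11187 in NC against mESC. A lone library of a stage was then assumed to vary like the others. From coverage, the TET shares of Tet1, Tet2 and Tet3 were 82.4%, 15.2% and 2.40% in mESC (63.1%, 34.1% and 2.77% from TPM), 24.6%, 20.2% and 55.2% in NPC (15.6%, 37.0% and 47.4%) and 14.3%, 22.1% and 63.6% in NC (9.64%, 37.6% and 52.7%). Leaving out 1 library, the TPM shares in mESC were 59.9% to 66.4%, 30.7% to 37.5% and 2.66% to 2.87%. In NPC they were 15.1% to 15.99%, 36.3% to 37.7% and 46.3% to 48.6%, and in NC 9.63% to 9.65%, 35.5% to 39.8% and 50.6% to 54.8%.

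The labels do not say that equal replicate numbers share a culture or day. The difference between replicates 1 and 2 was correlated over genes between stages. The correlation was 0.05 for mESC and NPC, -0.08 for mESC and NC and -0.07 for NPC and NC. Values this low over all genes cannot exclude a shared culture or day, so whether the numbers pair the libraries was not settled. With the replicate block 7368, 4247 and 11575 genes were called for the steps mESC to NPC and NPC to NC and for the whole course, with 9, 3 and 8 of the 10 genes. Depth in reads is unknown, so the counting error of low values cannot be given. Cxxc4 in mESC is such a value, with a coverage of 0.0885 and 0.0817 reads per base.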

Other observations

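Beside Smug1, a noncoding gene on the same strand followed a similar course. D930007P13Rik, whose model ends 6479 bases below the start of the Smug1 model on chromosome 15, was at 0 TPM in each mESC library, at 45.3 and 60.6 TPM in NPC and at 11.7 and 14.6 TPM in NC. Like Smug1 it was highest in both NPC libraries. Cbx5, which encodes a heterochromatin protein and lies 33542 bases on the other side, stood at 92.4 and 111 TPM in mESC, 137 and 152 TPM in NPC, and 115 and 116 TPM in NC. Its libraries thus span a far narrower range than those of Smug1. Both genes were chosen after their values were seen, and whether reads of the noncoding gene bear on the Smug1 value was not tested.

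The ratio of Tdg to its pseudogene depends on the measure. By coverage per Gb of aligned bases Tdg stood at 3.83, 5.04, 6.19, 6.66, 5.12 and 5.04 in mESC replicates 1 and 2, NPC replicates 1 and 2 and NC replicates 1 and 2, and Tdg-ps at 5.12, 6.61, 7.77, 8.85, 6.87 and 5.91. The pseudogene thus exceeded the gene on this scale in all 6 libraries, while by TPM the gene exceeded the pseudogene in all 6. How much of either value comes from reads of the other copy was not tested.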
